A study of Homo sapiens with 4 samples.

Results

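The question addressed here is whether the expression difference that goes with DACH1 in U87TR-Da cells depends on the culture medium. U87TR-Da derives from U87MG, an established human glioblastoma line, and carries DACH1 under doxycycline control. For each gene the log2 signal of the silenced culture was subtracted from that of the induced culture within a medium, which gives the DACH1 difference. The DACH1 difference in the arrays titled DMEMF was then subtracted from that in the arrays titled NBE. A positive result means that DACH1 went with a lower signal, or a less high one, in DMEMF than in NBE. Of 19775 genes on the array, 8081 reached a signal of 100 on at least 1 of the 4 arrays and are described. The cut is sharp but arbitrary: ZXDC entered with a brightest signal of 100.1 and a value of -0.03, and CDC25C stayed out at 99.9 with 0.72.

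There were 4 arrays, 1 for each of 4 cultures: silenced in DMEMF, induced in DMEMF, silenced in NBE and induced in NBE. DMEMF stands for DMEM with 10% fetal bovine serum, and NBE for Neurobasal medium without serum, to which N-2, B-27, bFGF and EGF were added. All 4 samples carry the same protocol line, 1 µg/mL doxycycline over 72 h, so it is not stated what set the silenced cultures apart. The labels do not say whether the line is a single clone, and no parental U87MG culture was used here. Since every condition has 1 array, the model with both factors and their interaction leaves no error term. No p-value or standard error can be given for any value, and "higher" and "lower" describe these arrays.

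DACH1 is a nuclear protein of the Dachshund family. It is recruited to promoters by other transcription factors, among them AP-1 and homeodomain proteins that bind EYA coactivators, and brings corepressors and histone deacetylases with it. In glioma cells its loss has been tied to growth factor signalling and stem-like growth. Serum supplies lipids and activators of serum response factor, whereas serum-free medium with EGF and bFGF is used to keep glioma cells in a state closer to neural progenitors.

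DACH1 itself differed in both media. In DMEMF its signal was 126.0 when silenced and 4431 when induced, 35.2-fold higher. In NBE it was 32.5 and 875.1, 26.9-fold higher. The DACH1 difference of DACH1 thus changed by only -0.39 log2 between media. Its induced signal was however 5.06-fold lower in NBE, so the medium and the amount of DACH1 cannot be told apart in anything that follows.

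The medium labels were checked against genes known to respond to serum or growth factors, and the lists did not all point one way. The 14 contractile and actin-binding genes, classical targets of serum response factor, had a median log2 signal 1.77 higher in NBE than in DMEMF among silenced cultures and 1.76 higher among induced ones. Calponin gene CNN1, for example, read 33.2 and 39.4 in DMEMF and 874.0 and 606.7 in NBE. The 14 genes of ERK feedback, which EGF and bFGF induce, had a median of NBE minus DMEMF of -1.34 log2 among silenced cultures, although NBE is the medium with both factors. The phosphatase gene DUSP6 read 2383 and 1012 in DMEMF against 45.3 and 38.1 in NBE. Immediate early factors, which serum induces, had medians of NBE minus DMEMF of -0.66 and -0.97. This is the direction of the ERK feedback list, with which they share EGR1. Genes of cholesterol synthesis and uptake had medians of 0.05 among silenced and -0.52 among induced cultures. By its median the contractile list was higher in the medium titled as serum-free. Its member TPM2 went the other way, at 343.9 in DMEMF and 167.1 in NBE among silenced cultures. None of these lists decides the labels, and whether serum, the added factors or anything else set them was not tested. The media are therefore named by the titles of the arrays. If the titles were exchanged, every value would change sign and keep its size.

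Of 14 markers of glioblastoma lines, 9 reached 100 on at least 1 array and 4 stayed under 50 on every array. VIM, CD44, TNC, FN1, LGALS1 and ANXA2 read 1306 or more on every array, while GFAP, S100B and SOX2 stayed under the floor of 10.9 on all 4. CHI3L1, a marker of mesenchymal glioma, was low, with 77.4 and 21.4 in DMEMF and 87.4 and 103.1 in NBE. The list was thus met in part. Of 19 markers of other cell types, 1 reached 100 (the pericyte gene RGS5, 132.5 in the silenced DMEMF culture) and 17 stayed under 50 on every array. Their summed signal lay between 254.7 and 323.5. PTPRC, CDH5 and CDH1 were near or under the floor. The median signal over all probe sets ran from 15.7 to 19.3 between arrays.

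The DACH1 difference was much wider in DMEMF than in NBE. In DMEMF the induced culture exceeded the silenced one by 2-fold or more for 181 of the 8081 genes (2.24%) and fell short of it by that much for 290 (3.59%), 471 in all (5.83%). In NBE, 6 were 2-fold higher (0.0742%) and 14 lower (0.173%), 20 in all (0.247%). The standard deviation of the DACH1 difference over genes was 0.55 log2 in DMEMF and 0.24 in NBE. For 321 genes the value was at least 1 log2 higher in NBE (3.97%), and for 203 at least 1 log2 lower (2.51%). Together these are 524 genes (6.48%), while the median over all genes was -0.01. REL, MFAP4 and SP4 lay just inside the upper limit, and PSMB9, METTL15 and PDGFC just outside it.

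**Figure D1:**
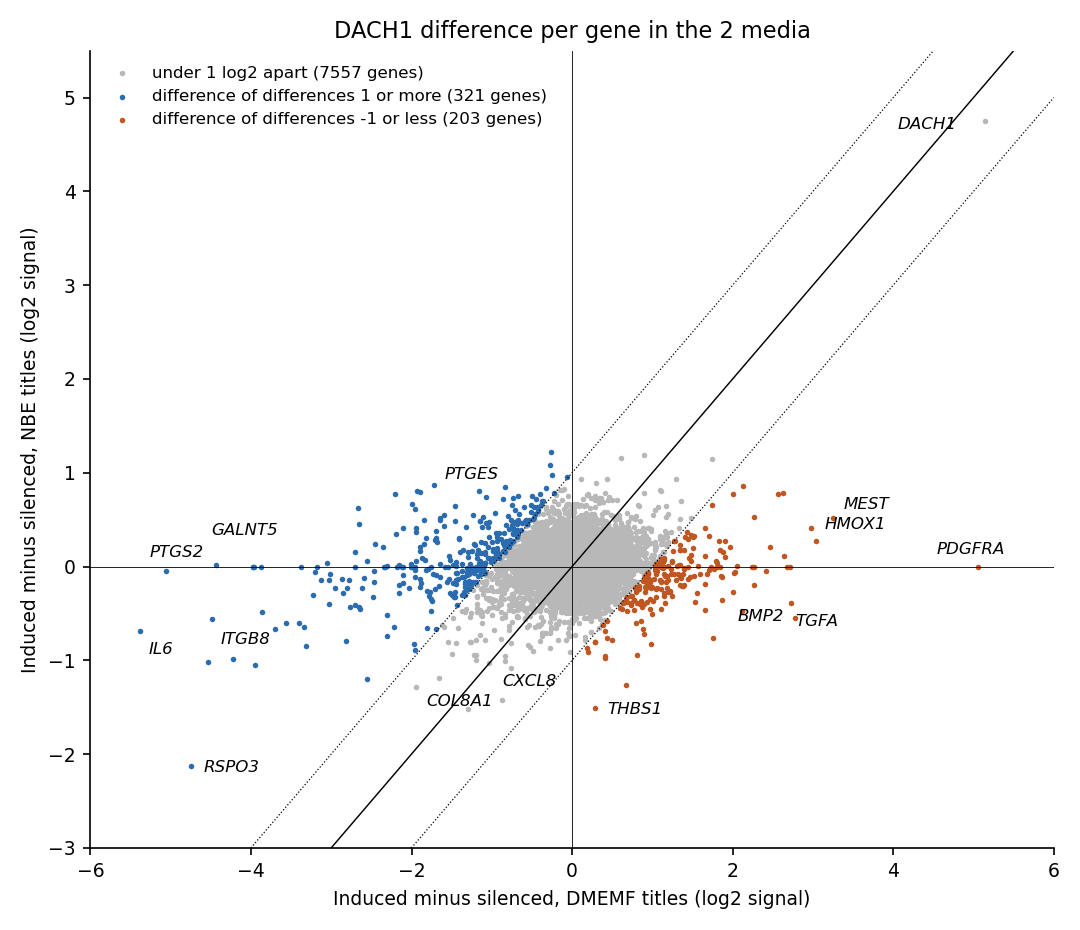
Each of 8081 genes is plotted by its DACH1 difference (induced minus silenced, log2 signal) in the arrays titled DMEMF (x axis) and in those titled NBE (y axis); the solid line marks equal differences and the dotted lines a gap of 1 log2. The 524 coloured genes, 321 blue and 203 orange, spread more along the x axis than along the y axis, where 8 of them pass 2-fold, and DACH1 lies far along the line of equal differences.

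Most of the 524 genes beyond 1 log2 owed their place to DMEMF. Of them, 365 were 2-fold different in DMEMF, 8 in NBE and 155 in neither, where a smaller difference in each medium added up. Among all 8081 genes, 0 were 2-fold different in opposite directions in the media. The silenced DMEMF array stood at least 2-fold above each of the other 3 arrays for 129 of the 321 higher genes, and the induced DMEMF array at least 2-fold below each of them for 73. Of the 203 lower genes, the silenced DMEMF array stood 2-fold below all others for 52 and the induced DMEMF array 2-fold above all others for 53.

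DMEMF had the larger share of 2-fold genes in each of 6 classes of brightness. Among genes whose brightest signal lay between 100 and 200, 6.4% were 2-fold different in DMEMF and 0.43% in NBE. Between 1000 and 2000 the shares were 6.42% and 0.109%, and between 2000 and 5000 they were 7.54% and 0.184%. The 2 of 157 genes over 5000 that passed in NBE were CXCL8 and IL1RN, whose NBE signals were 110.6 or less.

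**Figure D2:**
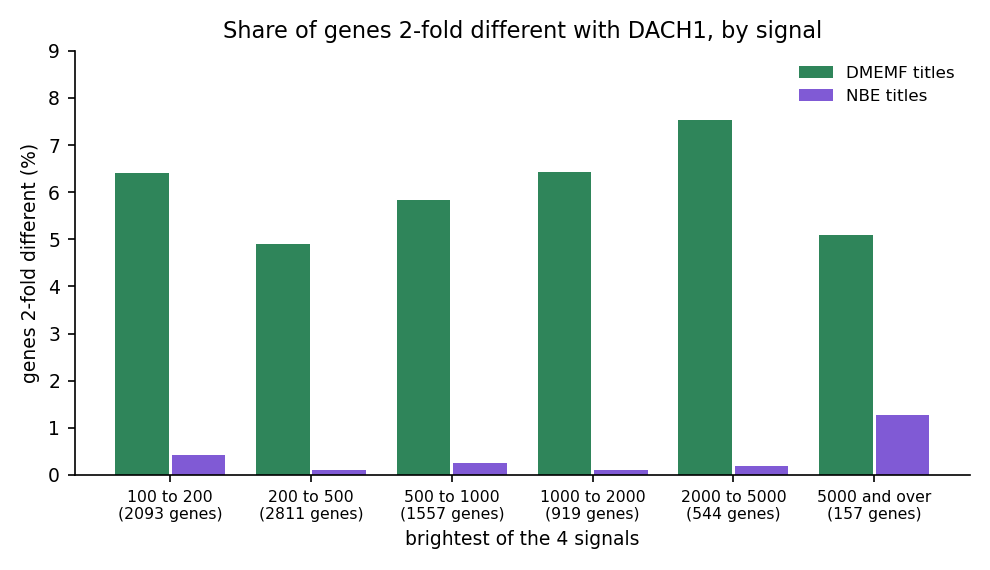
Bars give the percentage of genes at least 2-fold different between the induced and the silenced culture, in arrays titled DMEMF (green) and NBE (violet), by the brightest of a gene's 4 signals; the number of genes stands under each pair. The DMEMF share lies between 4.91% and 7.54% and the NBE share between 0.107% and 1.27%.

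Not all of these genes were expressed in NBE. Of the 524 genes, 304 had both NBE signals at 100 or more, 80 had both under 50, and 26 had both at the floor. For those 26 no DACH1 difference could be measured in NBE, and their value is the DMEMF difference with the sign turned. With genes required to reach 100 on all 4 arrays, 120 were higher and 86 lower of 5988.

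Probe sets of the same gene, which need not read the same transcript, gave a second measurement on the same hybridisations. For 3391 genes another probe set also reached 100. Of 119 genes at 1 or more by the brightest probe set, 117 had the same sign by the next one, and 79 were also at 1 or more. Of 65 genes at -1 or less, the figures were 61 and 43. Of either group, 0 were 1 log2 or more in the other direction. The correlation across the 3391 genes, which share the 4 arrays and are not replicates, was 0.76. This checks the probe sets and says nothing of how cultures vary.

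**Figure D3:**
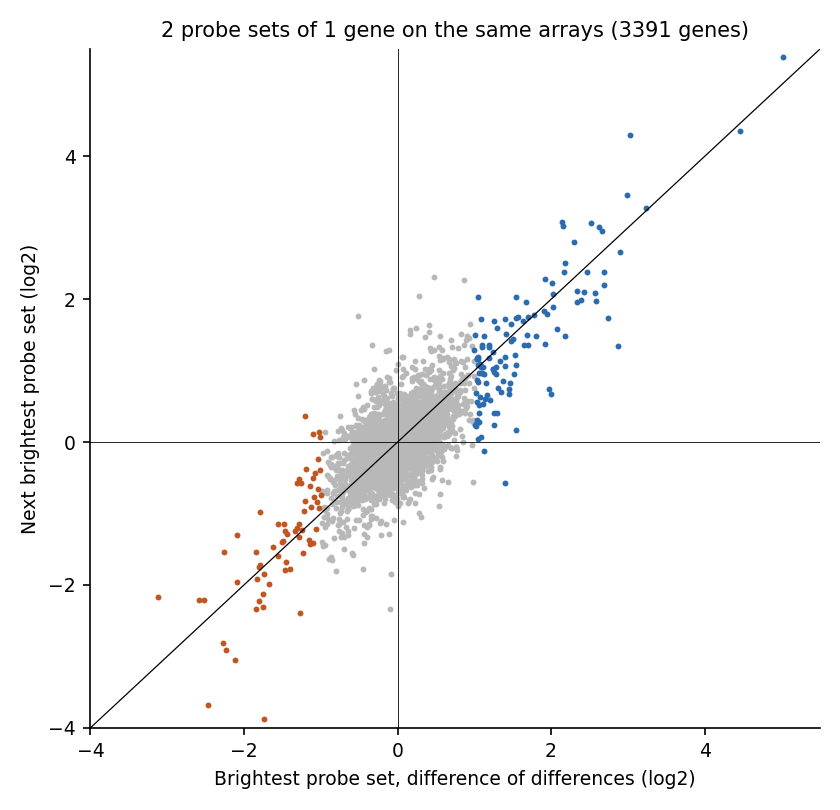
The difference of differences (log2) of the brightest probe set of a gene (x axis) is plotted against that of its next brightest (y axis) for 3391 genes with both at a signal of 100 or more on at least 1 array. Blue and orange mark the 119 and 65 genes beyond 1 log2 by the brightest probe set, which follow the line of equality with 117 and 61 of them on its side of 0.

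Prostaglandin synthesis gave the highest value of any gene. PTGS2, the inducible cyclooxygenase, read 3155 and 94.3 in DMEMF, silenced and then induced, and 59.8 and 57.8 in NBE. It was high on 1 array, the silenced DMEMF culture, and the difference of differences was 5.02, with 5.39 by its next probe set. PLA2G4A, the phospholipase that releases arachidonic acid, read 131.4 and 14.3 in DMEMF and 11.4 and 7.6 in NBE. The prostaglandin E synthase gene PTGES read 1850 and 562.8 in DMEMF but 278.5 and 509.8 in NBE. It was thus 3.29-fold lower with DACH1 in DMEMF and 1.83-fold higher in NBE, where its next probe set gave 0.30 log2. The receptor gene PTGER4 had a value of 1.13, and PTGES2, PTGES3 and PTGR1 lay between -0.26 and 0.56. Of 18 genes on this list 7 passed the signal cut. In all, 4 of these 7 were at 1 or more and 0 at -1 or less, and the share at 1 or more over all genes was 3.97%. PTGS2 and PLA2G4A passed the cut on the silenced DMEMF array alone, whose high signal also sets their values. PTGES and PTGER4 passed it in NBE as well. The count is therefore no test of enrichment. The list median was 1.13 and ran from 0.10 to 1.27 over the alternatives.

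Cytokine and NF-kB genes followed the same course with exceptions. Of 22 measured members 12 were at 1 or more and 1 at -1 or less, with a median of 1.17 beside -0.01 over all genes. IL6, TNFAIP6, IL1A, LIF, CXCL1, CXCL2, CXCL3 and CXCL5 passed the signal cut in DMEMF only. Their values are largely the DMEMF difference with the sign turned. IL1B, IL24 and IL33 entered in the same way and were not at 1 or more. Since DMEMF signals both admitted such genes and set their values, the count and median are no test of enrichment. IL6, which encodes a pro-inflammatory cytokine, read 5184 and 124.5 in DMEMF and 31.6 and 19.6 in NBE, a value of 4.69. The silenced DMEMF culture was high, and each of the remaining 3 was 41.6-fold or more below it. TNFAIP6, a hyaluronan-binding secreted protein gene, read 1610 and 86.2 in DMEMF and 34.4 and 17.3 in NBE, with 3.23 (3.27 by its next probe set). IL1A, a cell-associated interleukin 1, had 2.36, and LIF, a gp130 cytokine, 1.78.

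Chemokine genes that attract neutrophils through CXCR2 differed among themselves. CXCL1 read 236.8 in silenced DMEMF, was 15.8-fold lower in induced DMEMF and was under the floor in both NBE cultures. CXCL5 read 323.9 and 22.1 in DMEMF and was likewise under the floor in NBE. CXCL3 read 1710 and 171.0 in DMEMF and 19.7 and 5.0 in NBE, so its NBE difference is a bound, at least 1.81-fold lower. CXCL2 read 5072 and 1364 in DMEMF against 28.7 and 24.7 in NBE. CXCL8 stood apart from these: it was 2.05-fold lower in DMEMF (7257 and 3547) and 2.04-fold lower in NBE (95.2 and 46.6), a value of 0.00. Its next probe set did not bear this out, with -1.76 in DMEMF, -0.67 in NBE and a value of 1.10.

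Some inflammatory genes far brighter in DMEMF showed no such dependence. IL1B read 7569 and 7795 in DMEMF and 72.8 and 51.3 in NBE, and IL24 read 1779 and 1692 against 14.8 and 12.1. Both differed little with DACH1 in either medium, at values of -0.55 and -0.22. IL33, an alarmin, was the single member at -1 or less: it read 570.6 and 2740 in DMEMF and was under the floor in NBE. The feedback inhibitors NFKBIA and TNFAIP3 had values of 1.17 and 1.41, while the subunit genes NFKB1, NFKB2 and RELB lay between 0.41 and 0.67.

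The start-site regions of IL6, CXCL1, CXCL5, TNFAIP6 and the prostaglandin gene PTGS2 are shown as examples. The motif to mark was chosen gene by gene, and matches of other motifs are not marked. RefSeq promoter sequences (GRCh38.p14) were matched for 6811 of the 8081 genes, and each window runs from 250 bases before to 50 after the annotated start. The 150 bases before the start follow, with NF-kB motif matches in capitals for the first 3, the AP-1 motif TGANTCA for TNFAIP6 and the TATA box TATAAA for PTGS2. They are IL6 (chr7:22727050-22727199, plus strand), CXCL1 (chr4:73869243-73869392, plus), CXCL5 (chr4:73998678-73998827, minus), TNFAIP6 (chr2:151357442-151357591, plus) and PTGS2 (chr1:186680424-186680573, minus).
IL6: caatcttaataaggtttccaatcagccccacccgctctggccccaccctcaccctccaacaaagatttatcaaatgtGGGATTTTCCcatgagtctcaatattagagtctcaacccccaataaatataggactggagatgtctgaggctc
CXCL1: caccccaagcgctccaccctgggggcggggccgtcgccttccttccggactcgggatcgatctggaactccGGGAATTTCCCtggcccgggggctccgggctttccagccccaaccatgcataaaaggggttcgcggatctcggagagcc
CXCL5: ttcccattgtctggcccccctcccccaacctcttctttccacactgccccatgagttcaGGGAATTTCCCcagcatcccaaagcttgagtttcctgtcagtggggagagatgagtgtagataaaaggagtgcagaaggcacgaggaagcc
TNFAIP6: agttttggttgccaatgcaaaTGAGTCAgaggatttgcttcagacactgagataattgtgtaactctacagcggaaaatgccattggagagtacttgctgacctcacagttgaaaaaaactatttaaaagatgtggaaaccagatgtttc
PTGS2: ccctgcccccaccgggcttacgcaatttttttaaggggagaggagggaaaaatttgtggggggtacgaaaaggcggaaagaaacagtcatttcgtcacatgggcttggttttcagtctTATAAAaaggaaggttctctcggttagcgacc
The match begins 73 bases before the start in IL6, 79 in CXCL1, 91 in CXCL5, 129 in TNFAIP6 and 32 in PTGS2. A match is a description of letters and not of binding.

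Over all matched promoters, motif shares were counted on both strands, and overlaps between motifs were not removed. The AP-1 motif TGANTCA was in 11.8% of 254 promoters of genes at 1 or more and in 11.6% of 164 at -1 or less. It was in 4.61% of all measured genes and in 7.76% of the 27305 promoters of the table. The ETS motif CCGGAAG was in 6.3% and 7.93% of the genes beyond 1 log2, 21.5% of measured genes and 10.7% of all promoters. The NF-kB motif was in 10.2% and 9.15%, against 6.39% and 5.72%. TATAAA was in 14.6% and 11.6%, against 5.48% and 12%. The cyclic AMP response element TGACGTCA was in 1.18% of promoters at 1 or more and 3.05% at -1 or less, against 3.58% of measured genes and 1.98% of all. The E-box CACGTG was in 7.87% and 9.15%, against 10.9% and 7.43%, and the SREBP motif TCACNCCAC in 0.787% and 1.22%, against 1.03% and 1.15%. Base composition differed too, with a median GC content of 61.2% at 1 or more, 65.7% at -1 or less and 65.3% over measured genes. None of these shares was tested.

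Growth factor genes were split in direction. FGF2, which encodes basic FGF, read 1476 and 209.3 in DMEMF and 299.6 and 172.7 in NBE, a value of 2.02 (1.89 by its next probe set). The silenced DMEMF culture was the highest, and the lower signal with DACH1 was 7.05-fold there and 1.73-fold in NBE. FGF7 read 280.4 and 18.0 in DMEMF and was under the floor in NBE. FGFR1 had a value of -0.53.

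EGF receptor ligands went both ways. TGFA read 109.5 and 725.8 in DMEMF and 185.7 and 142.2 in NBE, where the induced DMEMF culture alone was high, with a value of -3.11 (-2.17 by its next probe set). EREG, epiregulin, read 2981 and 471.5 in DMEMF and 59.2 and 43.9 in NBE, a value of 2.23. NRG1, a ligand of ERBB3 and ERBB4, had 1.54, but 0.16 by its next probe set. EGFR itself read 481.1 and 766.8 in DMEMF and 1281 and 1178 in NBE, a value of -0.79. PDGFRA, which encodes a receptor tyrosine kinase for PDGF, was low in silenced DMEMF (19.7), high in induced DMEMF (656.2) and under the floor in NBE, so its value of -5.06 is the DMEMF difference alone.

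Wnt antagonist gene DKK1 was among the highest values with expression in both media. It read 374.3 and 25.8 in DMEMF and 571.5 and 408.1 in NBE, so the induced DMEMF culture was low and the other 3 lay within 1.53-fold of each other, at a value of 3.37. RSPO3, which enhances Wnt signalling, was lower with DACH1 in both media, 27-fold in DMEMF (945.0 and 35.0) and 4.39-fold in NBE (55.7 and 12.7). WNT7B read 134.2 and 250.9 in DMEMF and 54.5 and 33.2 in NBE, a value of -1.62. Of 8 measured genes of this list, 2 were at 1 or more and 1 at -1 or less, with a median of 0.21.

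BMP and TGF-beta genes also took both directions, 3 at 1 or more and 4 at -1 or less of 21, with a median of -0.27 that turned to 0.15 without probe sets that can match several transcripts. The ligand gene BMP2 read 395.2 and 1593 in DMEMF and 50.7 and 42.1 in NBE, with -2.28 (-2.81 by its next probe set). INHBA, an activin subunit gene, read 515.5 and 1897 in DMEMF and 41.5 and 45.9 in NBE, a value of -1.73. Its next probe set differed in NBE, with -1.61 against 0.15, and gave -3.87. ID1, a target of BMP signalling, read 134.3 and 491.7 in DMEMF but 2714 and 2507 in NBE, so its DACH1 difference appeared where its level was low. LTBP1, which binds latent TGF-beta, read 1028 and 185.7 in DMEMF and 283.5 and 253.0 in NBE, a value of 2.30 (2.80 by its next probe set).

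Genes bright on all 4 arrays show the dependence without any signal near the floor. RAB27B, a GTPase of vesicle secretion, read 4033 and 682.6 in DMEMF and 941.6 and 979.1 in NBE. The pentraxin gene PTX3 read 3051 and 438.0 in DMEMF and 214.4 and 182.8 in NBE. GLIS3, a zinc finger factor gene, read 735.8 and 132.6 against 319.7 and 309.7, and CTSC, cathepsin C, 545.1 and 121.6 against 214.4 and 217.5. With DACH1, these 4 genes were between 4.48-fold and 6.96-fold lower in DMEMF and differed by at most 1.17-fold in NBE. The rule that picked them fixes this contrast, so the values show only that no signal near the floor enters it.

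In the opposite direction the same rule picked TBC1D2, BHLHE40 and AHNAK. TBC1D2, a GTPase-activating protein gene, read 142.3 and 889.6 in DMEMF and 304.0 and 327.5 in NBE. The transcription repressor gene BHLHE40 read 597.1 and 2446 against 1963 and 1883. AHNAK, a giant scaffold protein gene, read 472.5 and 1916 against 2069 and 1971. For BHLHE40 and AHNAK the silenced DMEMF culture was the single low one, and the induced DMEMF culture lay within 1.3-fold of its NBE counterpart.

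**Figure D4:**
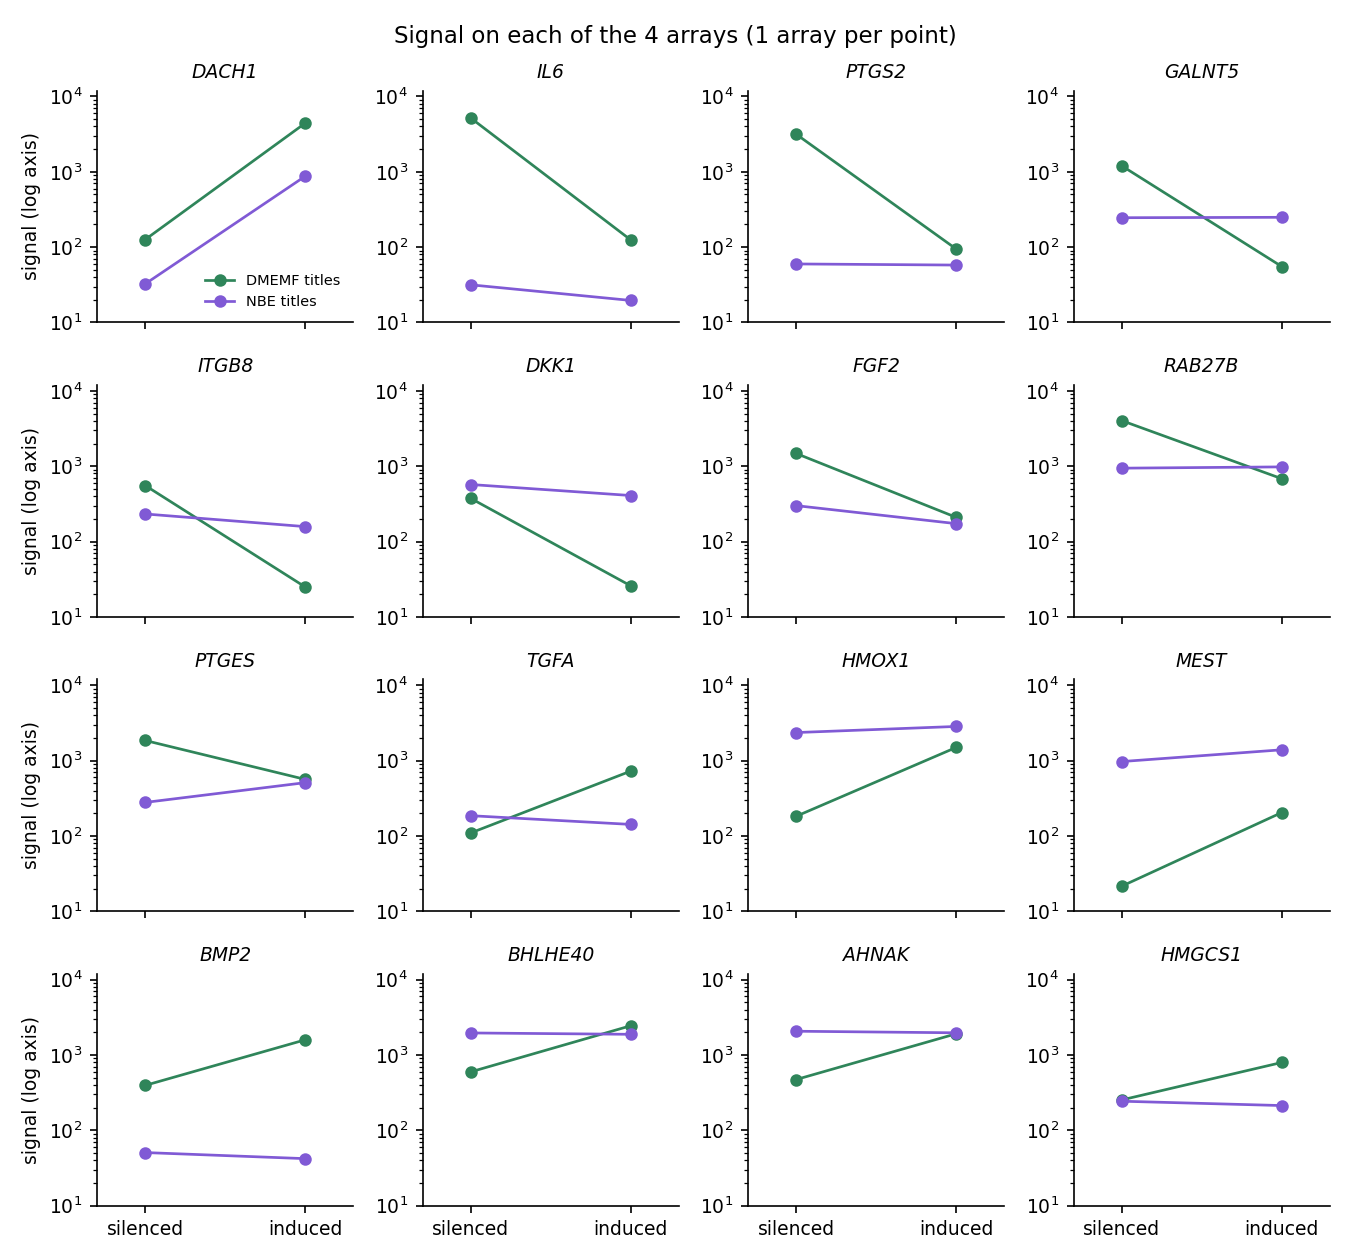
Signals (log axis) of 16 genes on the 4 arrays, silenced and induced, with arrays titled DMEMF in green and NBE in violet; each point is 1 array, so there are no error bars. Lines are parallel for DACH1, whereas in the other 15 genes the green line is the steeper one, downward from IL6 to PTGES and upward from TGFA to HMGCS1.

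Adhesion genes included ITGB8, an integrin subunit that activates latent TGF-beta, which read 554.3 and 24.9 in DMEMF and 232.2 and 157.8 in NBE (value 3.92). The laminin gene LAMA4 read 186.2 and 25.6 in DMEMF and 93.0 and 85.2 in NBE, and LAMB3 went the other way, with 270.9 and 782.4 against 101.3 and 78.0. GALNT5, which starts mucin-type O-glycans, read 1202 and 55.3 in DMEMF and 245.7 and 248.8 in NBE (value 4.46, and 4.35 by its next probe set). It was lower with DACH1 21.7-fold in the one medium and 1.01-fold higher in the other. Integrins and laminins had 3 of 16 genes at 1 or more and 4 at -1 or less. Collagen chains had 0 of 13 either way, which is near the background of 6.48%. COL1A2 read 571.4 and 706.6 in DMEMF and 8975 and 7620 in NBE, a wide medium difference with little DACH1 difference in either medium.

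Proteases of the matrix had 2 of 16 genes at 1 or more and 1 at -1 or less. ADAMTS5, an aggrecanase gene, read 2681 and 393.2 in DMEMF and 77.6 and 57.5 in NBE, a value of 2.34. The stromelysin gene MMP3 read 3064 and 824.7 against 1050 and 1218, and its value of 2.11 came with clear expression on every array. MMP2 lay at -0.22.

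Of 16 measured genes of cholesterol synthesis and uptake, 15 were above 0 with DACH1 in DMEMF, 3 of them by 2-fold, and 11 below 0 in NBE, 0 by 2-fold. Over all 8081 genes, 4359 were above 0 in DMEMF, 3597 below 0 in NBE and 4126 below 0 in the difference of differences. Housekeeping genes were above 0 in DMEMF for 11 of 14 and below 0 in NBE for 11 of 14. In the difference of differences 14 cholesterol genes lay below 0, 4 at -1 or less and 0 at 1 or more, with a median of -0.53. HMGCS1, an early enzyme of the pathway, read 253.2 and 796.0 in DMEMF and 243.6 and 213.3 in NBE, so the induced DMEMF culture alone was high. SQLE (-1.28), EBP (-1.25) and DHCR7 (-1.14), which act later, shared the direction, with a DACH1 difference between -0.10 and -0.19 in NBE. INSIG1 and PMVK had values of 0.01 and 0.05. Across the alternatives run the list median lay between -0.72 and -0.51.

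Genes of the cell cycle had small values of 1 sign. Of 25 genes of G2 and mitosis, 24 lay below 0, with a median of -0.56, yet 2 reached -1: the kinase gene PLK1 (41.3 and 68.4 in DMEMF, 310.1 and 237.2 in NBE) and CDC20. With DACH1, 24 of the 25 were higher in DMEMF and 23 lower in NBE, at medians of 0.37 and -0.15, and 0 passed 2-fold in either. The housekeeping medians were 0.07 and -0.18. Replication genes had 21 of 25 below 0 and a median of -0.32, but were mostly higher with DACH1 in both media, with medians of 0.41 and 0.18. RRM2, a ribonucleotide reductase subunit gene, read 367.9 and 725.2 in DMEMF and 2826 and 2409 in NBE (-1.21). Housekeeping genes had a median of -0.21, with 12 of 14 below 0; their part in the values of these lists was not tested.

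Stress responses differed in direction. Of 26 genes of the ATF4 and amino acid response, 22 lay above 0, 4 at 1 or more and 0 at -1 or less, with a median of 0.43. GDF15, a stress cytokine gene, read 852.3 and 241.1 in DMEMF and 41.0 and 39.9 in NBE. STC2, stanniocalcin 2, read 472.6 and 174.3 against 3195 and 2798. ER chaperones had a median of 0.16 and 0 of 18 genes beyond 1 log2.

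NRF2 target genes differed among themselves, with a median of -0.22. HMOX1, heme oxygenase 1, read 182.4 and 1498 in DMEMF and 2357 and 2841 in NBE, so the silenced DMEMF culture was low and the value was -2.77. GCLC, which makes glutathione's precursor, read 1412 and 521.7 in DMEMF and 374.8 and 387.0 in NBE, with a value of 1.48.

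Hypoxia and glycolysis genes had 16 of 23 below 0 and a median of -0.40, which turned to 0.15 without probe sets that can match several transcripts. NDRG1, a hypoxia-induced gene, read 311.9 and 1168 in DMEMF and 2754 and 3313 in NBE (-1.64). Respiratory chain genes had 0 of 22 beyond 1 log2 and a median of -0.02 (0.03 after quantile normalization), and p53 targets 0 of 14 and 0.06. With 6.48% of all genes beyond 1 log2, a count of 0 in lists of this size is near the background.

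**Figure D5:**
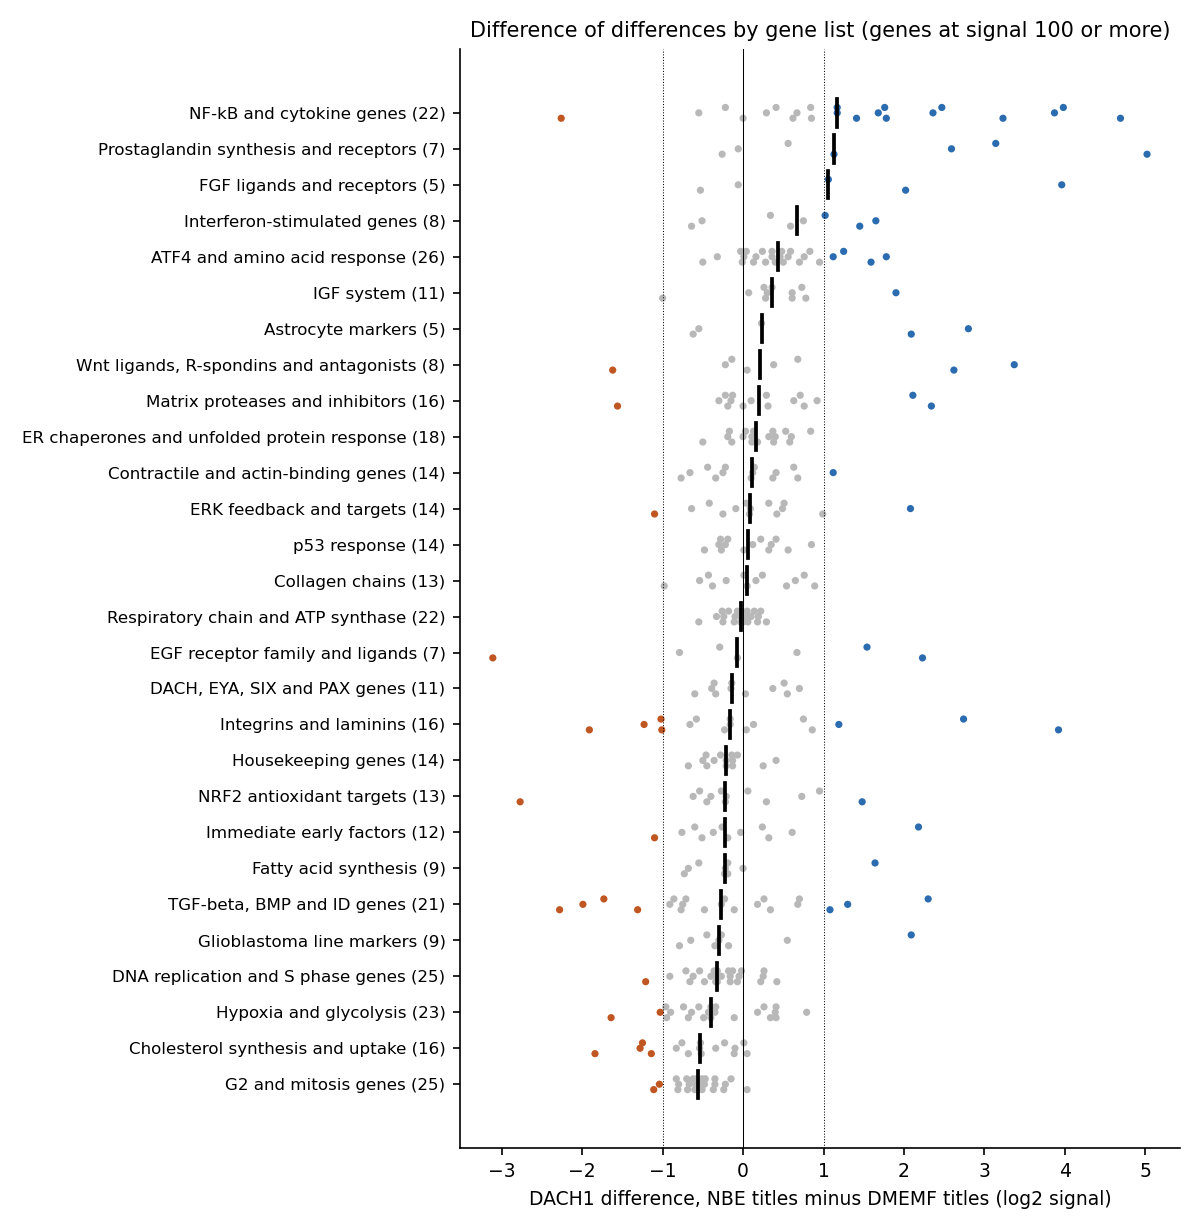
Difference of differences (log2, x axis) of each gene at a signal of 100 or more, by gene list (y axis, number of genes in brackets, lists of 5 or more genes); bars mark list medians, dotted lines 1 and -1, and blue or orange points genes beyond them. Medians run from -0.56 for G2 and mitosis to 1.17 for NF-kB and cytokine genes, and the lists with the widest spread hold genes on both sides.

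Further genes beyond 1 log2 had other roles. SLC1A3, an astrocyte glutamate transporter gene, read 135.0 and 12.8 in DMEMF and 158.0 and 104.1 in NBE, a value of 2.80. CHI3L1, a marker of mesenchymal glioma, read 77.4 and 21.4 against 87.4 and 103.1. Both are on the astrocyte list, which had 2 of 5 measured genes at 1 or more and 0 at -1 or less. Its members GLUL (-0.62) and ALDOC (-0.55) went the other way. The list median of 0.23 turned to -0.16 with a minimum of 200. The progenitor factor gene SOX4 read 100.1 and 471.9 in DMEMF and was under the floor in NBE. IRS1, an insulin receptor substrate gene, read 722.5 and 203.0 in DMEMF and 324.2 and 341.1 in NBE (1.90). MEST, an imprinted gene, read 21.5 and 204.4 in DMEMF and 971.3 and 1391 in NBE (-2.73). Interferon-stimulated genes had 3 of 8 at 1 or more, led by GBP1, a guanylate-binding protein gene (284.3 and 85.8 in DMEMF, 294.9 and 279.4 in NBE). Of the other lists, FGF ligands and receptors had 3 of 5 genes at 1 or more, with FGF7 under the floor in NBE. Immediate early factors (12 genes) and ERK feedback genes (14 genes) had 1 on each side. The IGF system had 1 of 11 at 1 or more, with a median of 0.36. Over all genes, 3.97% were at 1 or more and 2.51% at -1 or less, and no list count was tested against them. The DACH, EYA and PAX list had 0 of 11 beyond 1 log2, which is near the background of 6.48%.

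Of the 20 genes 2-fold different in NBE, 11 were also 2-fold different in DMEMF, all in the same direction. Besides DACH1, 1 gene was 2-fold higher in both, the transglutaminase gene TGM2 (278.8 and 930.4 in DMEMF, 34.8 and 77.2 in NBE), and its next probe set gave -0.17 in NBE. There were 9 genes 2-fold lower in both, with RSPO3 first. COL8A1 read 71.7 and 18.6 in DMEMF and 1242 and 506.3 in NBE, and its next probe set gave -0.61 and -1.17. The axon guidance gene SLIT2 read 258.6 and 81.7 against 51.6 and 22.6.

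The other 9 genes were 2-fold different in NBE and by less than 2-fold in DMEMF. THBS1, thrombospondin 1, read 15.2 and 18.5 in DMEMF and 656.9 and 230.6 in NBE, so the 2.85-fold lower signal with DACH1 came where the gene was expressed. Its next probe set gave -1.82 in NBE and a value of -1.72. RARB, a retinoic acid receptor gene, was lower with DACH1 in both media, 1.83-fold in DMEMF (38.5 and 21.0) and 2.68-fold in NBE (143.0 and 53.3), so it shows no dependence on the medium at 1 log2. IL1RN was higher in both, 1.87-fold and 2.28-fold, at a value of 0.29. Its next probe set did not bear this out, with 1.55 log2 in DMEMF, 0.56 in NBE and a value of -0.99. CCDC30 was higher in NBE, at 25.8 and 60.0, and read 579.1 and 484.4 in DMEMF.

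Some of the 524 genes lie side by side in the genome. Among the 8079 genes with a place in RefSeq's GRCh38.p14 table, consecutive measured genes beyond 1 log2 in the same direction formed 45 runs with 95 genes, 30 runs higher and 15 lower. With 3.97% of genes higher and 2.51% lower, some neighbours share a direction in any gene order. How many runs that would give was not worked out. The longest held 4 chemokine genes on chromosome 4, CXCL1, CXCL5, CXCL3 and CXCL2. PTGS2 and PLA2G4A, both of prostaglandin synthesis, were neighbours on chromosome 1. The complement protease genes C1S and C1R were neighbours on chromosome 12, at 332.3 and 55.2 in DMEMF for C1S and 428.7 and 393.7 in NBE. For C1R the signals were 217.0 and 50.1, and 196.1 and 184.7. The inflammatory caspase genes CASP4 and CASP1 on chromosome 11 had values of 1.14 and 2.66. Runs of closely related copies, such as BTN3A2, BTN3A1 and BTN3A3 on chromosome 6 or SERPINB4 and SERPINB3 on chromosome 18, may share signal through similar probes. The same holds for the chemokine run on chromosome 4. There CXCL2 and CXCL5 were read from probe sets that can match several transcripts. The forkhead genes FOXC2 and FOXL1 on chromosome 16 formed a run in the other direction, at -1.01 and -1.38.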

How the data were processed

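The authors deposited linear MAS5 signal intensity values for 4 arrays, the method being named in the submitters' processing notes. For its version and target intensity the sources used here give nothing. MAS5 subtracts a mismatch-based background, so low signals are noisy on a log scale. Means after trimming 2% of probe sets at each end lay between 99.6 and 99.7, close to a common value. Of 54613 probe sets, 41091 had 1 gene in GEO's platform annotation, 1801 several and 11721 were unlisted; 99.9% of the symbols were updated through Entrez identifiers. Signals under the 40th percentile (10.9) were set to it before log2, so a fold against the floor is a bound. A gene was read from the brightest of its probe sets. Genes needed a signal of 100 on at least 1 array. Labelled cRNA came from 6 µg of total RNA.

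No test was possible with 1 array per condition, and genes were counted at 1 log2. The calculation was checked on simulated data, made of bright genes with 1 probe set each, little noise and known differences. This covers the arithmetic and not the floor, the choice of probe set or the variation between cultures. The members, the 32 gene lists (623 genes, 43 of them not named here) and the naming rule were chosen with earlier results of these data known. The rule took DACH1, the highest and lowest values above and at the floor, and genes 2-fold different in both media or in NBE alone. Genes 4-fold different in DMEMF were taken if they differed little in NBE and had all signals at 100. The rule further took up to 4 genes per list, and genes next to each threshold. Genes outside it are the flagged ones, the neighbours, and further list members given for contrast, chosen after their values were seen. Alternatives were quantile normalization, centring, 3 other treatments of the floor, 4 filters and 3 choices of probe set. Work was done in Python 3.11.15 with numpy 2.4.6 and pandas 2.3.3, and plots in matplotlib 3.10.9.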

Additional observations from a re-analysis of the deposited data

Results flagged for a closer look

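In 23 genes above the floor on every array, the induced culture was at least 1.5-fold above the silenced one in 1 medium and at least 1.5-fold below it in the other. The difference was not tested, since each medium has 1 pair. Higher in NBE and lower in DMEMF with DACH1 were PALMD (difference of differences 3.28), TTC32 (2.98), LPAR1 (2.74), BDNF (2.70), CASP1 (2.66), PTGES (2.59), SLAMF7 (2.58), BDNF-AS (2.12), TRPS1 (1.97), CYP3A5 (1.68), GAPLINC (1.58), BDKRB1 (1.47), DMXL1 (1.42), FAM76B (1.41), ZNF362 (1.31) and COQ8A (1.23). Lower in NBE and higher in DMEMF were MEI1 (-2.51), DUSP18 (-1.93), ARMC9 (-1.80), EDN1 (-1.75), WNT7B (-1.62), CORO2B (-1.56) and RGS4 (-1.40).

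BDNF, a neurotrophin gene, read 704.3 and 188.4 in DMEMF, silenced and then induced, and 203.0 and 351.8 in NBE; its next probe set gave 2.38. Its antisense gene BDNF-AS read 205.3 and 74.6, then 87.6 and 137.9. LPAR1, a receptor for lysophosphatidic acid, read 205.3 and 53.7, then 33.7 and 59.0, with 1.74 by its next probe set. EDN1, endothelin 1, read 41.0 and 71.8, then 147.2 and 76.5, with -2.31 by its next probe set. By the next probe set, the NBE difference also fell short of 1.5-fold in BDNF (0.45), CASP1 (0.44), PTGES (0.30), LPAR1 (0.23), CYP3A5 (0.52), ARMC9 (-0.54), MEI1 (0.00) and TRPS1 (-0.14), the last with the other sign. For these 8 genes the opposite direction at that size rests on 1 probe set. The next probe sets of EDN1 (-1.17) and RGS4 (-0.85) did pass 1.5-fold in NBE. For all remaining flagged genes, among them PALMD, TTC32 and DUSP18, no next probe set could be compared. Their opposite direction therefore also rests on 1 probe set.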

How the results depend on the processing

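No paired analysis was possible because each condition has 1 array and the titles carry no replicate numbers, and no array can be left out of a value that needs all 4. The counts of 321 higher and 203 lower genes stayed within 1.5 times under quantile normalization, centring, no floor, a floor of 50, a pseudocount, and without probe sets ending in _x_at, _s_at or _a_at. They became 120 and 86 of 5988 genes with 100 or more on all 4 arrays, and 790 and 807 of 19775 with no filter. The mean of all probe sets gave 188 and 135 of 5740, and a minimum of 200 left 134 lower of 5988. With 100 or more on at least 1 array of each medium, an alternative chosen after seeing the data, they were 181 and 121 of 6562. Without probe sets ending in _x_at, _s_at or _a_at, 5542 genes were left. The main counts are of 8081, so a change of count is in part a change of this total. The counts per medium that follow have the same totals. The DMEMF counts of 181 higher and 290 lower became 80 and 105 with 100 on all arrays, 116 and 159 with 100 in each medium, and 355 and 581 with no filter; the mean of all probe sets gave 181 lower. The NBE counts of 6 higher and 14 lower became 17 and 26 with no floor, 2 and 9 with a floor of 50, 3 and 8 with a pseudocount, 0 and 0 with 100 on all arrays, 2 and 2 with 100 in each medium, 129 and 344 with no filter, and 2 and 8 with the mean of all probe sets. Quantile normalization gave 10 higher there, and a minimum of 200 gave 6 lower. Of 104 named genes beyond 1 log2, between 86 (pseudocount) and 102 (no floor) kept direction and a size of 1 under the scaling and floor alternatives, and 36 of 44 did by the next probe set. Reversed were SOX4 (1.44 with no floor), DIO2 (-0.34 with a floor of 50), and EGR1 (0.11) and PTPRN2 (0.07) by the next probe set; the cause was not tested. The list medians of neuronal markers (0.07) and the respiratory chain (0.03) changed sign with quantile normalization; other list medians that changed sign did so with another filter, floor or choice of probe sets.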

Other observations

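Probe sets without a single gene name, 13522 in all, showed a like pattern: 1771 reached a signal of 100 on at least 1 array, of which 85 (4.8%) were at 1 or more and 36 (2.03%) at -1 or less.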
